A study of Mus musculus with 8 samples.

Results

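Transcripts of 8 complement genes were measured by RNA-seq in bone marrow-derived macrophages (BMDMs), which are cultured from marrow cells, with and without Nudt21. The genes were chosen by symbol, with earlier results of these data known. All 8 of them, C1qa, C1qb, C1qc, C3, Cfb, Cfp, C3ar1 and C5ar1, were present among the 21080 gene symbols measured. Nudt21 encodes the subunit of the cleavage factor Im complex that binds UGUA in the RNA and takes part in the choice of the polyadenylation site. Nudt21-cKO mice (Nudt21 fl/fl LysM Cre, hereafter cKO) lose exons 2 and 3 of the gene where Cre is made from the lysozyme M locus, that is, in myeloid cells. WT mice were LysM Cre littermates of the same sex, so Cre was present in both genotypes, and all animals were on the C57BL/6 background. BMDMs were taken without stimulation (0 h) or after IFNγ overnight followed by LPS for 4 h (hereafter 4 h). Each of the 4 groups, WT and cKO at 0 h and WT and cKO at 4 h, had 2 samples, and each sample pooled the cells of 2 mice.

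Complement is a cascade of plasma proteins that tags microbes, immune complexes and dying cells for uptake. C1q starts the classical pathway by binding antibody or exposed ligands, and each C1q molecule is assembled from the A, B and C chains that C1qa, C1qb and C1qc encode. C3 is the protein on which all activation routes converge. Factor B, encoded by Cfb, and properdin, encoded by Cfp, build and stabilize the convertase of the alternative pathway, which cleaves more C3. The peptides C3a and C5a released on cleavage act through the receptors encoded by C3ar1 and C5ar1. The liver makes most circulating C3 and factor B, whereas macrophages are a main source of C1q, and they also make C3, factor B and properdin locally and carry the anaphylatoxin receptors.

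The 8 genes moved in different ways. At 0 h the C1q chains and Cfb were lower in cKO than in WT. At 4 h C3 and Cfb were higher in cKO, by 2.63-fold and 2.45-fold, so that Cfb changed from the lower to the higher side of WT. Stimulation raised C3 and Cfb and lowered C3ar1 in both genotypes. Values are the mean read coverage per base of a gene, and levels of different genes are set side by side on this scale. On it, the number of transcripts and the length of the 3' untranslated region (3'UTR) in use cannot be told apart. This holds for differences between the genotypes as well. A gene was called changed where limma, fitted to log2(coverage + 0.1) of every gene whose mean coverage reached 0.5, gave a fold change above 1.5 with an unadjusted p under 0.05. At 0 h, 4 of the 8 genes were called lower and 0 higher in cKO, against 5.61% lower and 8.99% higher among the 16251 genes tested. The C1q genes among these 4 are neighbors in the genome and had similar profiles, so they do not count as separate events. At 4 h, 2 of 8 were called higher and 0 lower, against 20.8% higher and 4.17% lower among 14950 genes. With limma's p-values adjusted after Benjamini and Hochberg, 0 of 8 passed 0.05 at either time, against 1.03% of all genes at 0 h and 3.86% at 4 h. Without adjustment 5 of 8 passed at 0 h and 4 of 8 at 4 h, against 21.3% and 34.3% of all genes. A two-sided exact permutation test of a gene with 2 samples in each group would give a p of 0.333 at the lowest.

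**Figure D1:**
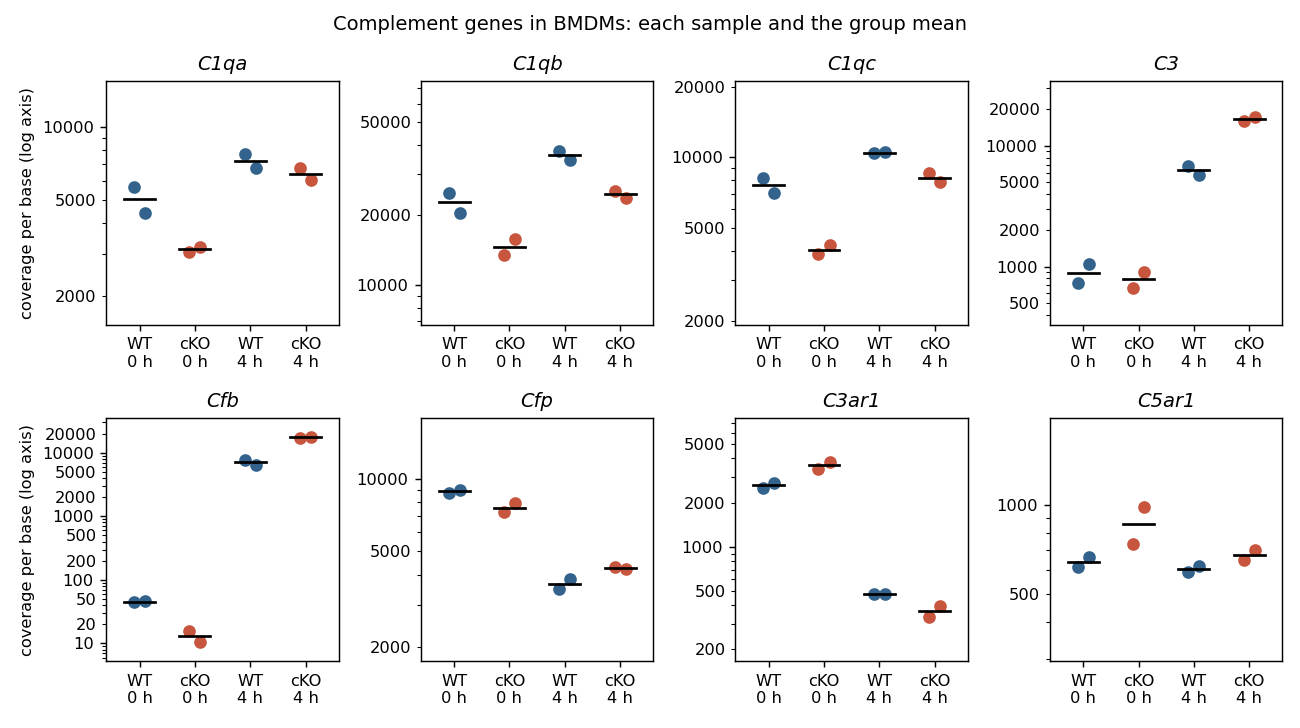
Coverage per base of the 8 complement genes in each of the 8 samples, on log axes that differ between panels (blue, WT; red, cKO; points, samples; black lines, means of 2 samples). The C1q genes are lowest in cKO at 0 h, C3 and Cfb are highest in cKO at 4 h (16594 and 17430), and C3ar1 is at 331 to 478 at 4 h, down from 2534 to 3789 at 0 h.

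Summed coverage was 14950347 to 17954882 per sample over all genes, and how many reads lie behind a value is unknown (the labels give a yield above 250000000 reads for each sample as the aim). Coverage of Nudt21 was 718 and 641 in the WT samples at 0 h and 158 and 172 in cKO, and it was 547 and 575 in WT against 142 and 115 in cKO at 4 h. Every macrophage marker checked, 8 of 8 with Csf1r, Adgre1 and Cd68 among them, had a mean coverage above 10 in each group. Of 7 neutrophil genes 6 were above 10, while the defining marker Ly6g was at 0 to 7.37, and the T cell list was at 0 to 3.86 summed. The 4 B cell genes summed to 125.4 to 143 in WT against 67.9 to 73.5 in cKO at 0 h, most of it Cd79b, and to at most 11.0 at 4 h. The fibroblast list was at 85.6 to 219 at 0 h and 15.8 to 114 at 4 h, mostly from Col1a1 and Col1a2. The dendritic cell list was at 7.71 to 14.6 at 0 h and 25.7 to 67.2 at 4 h, and the mast cell list at 26.7 to 36.4. The part of these cells in the results was not tested. Nos2, which IFNγ and LPS induce, was listed at 0 in all 4 unstimulated samples and was 19483 to 44731 at 4 h, although the labels give the stimulation for every sample. In bulk RNA, fewer cells of a type and less RNA per cell cannot be told apart.

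All 8 genes lie on the minus strand of the mouse genome, given here on GRCm38 with the GENCODE annotation. The C1q genes stand next to each other on chromosome 4, with C1qb at chr4:136880129-136886187, C1qc at chr4:136889804-136893065 and C1qa at chr4:136895917-136898803. C3 (chr17:57203970-57228136) and Cfb (chr17:34856374-34862518) share chromosome 17. Cfp is at chrX:20925454-20931555, C3ar1 at chr6:122847138-122856161 and C5ar1 at chr7:16246743-16259540. The exons of Cfb overlap those of the annotated gene Gm20547, so reads of the overlap cannot be assigned to either with certainty.

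Since Nudt21 protein binds UGUA, the 3'UTRs were searched for TGTA. The 3'UTRs were short in most of the genes, with 43 bases in C3 and in Cfb, 140 in Cfp, 160 in C1qb, 237 in C1qa and 239 in C1qc, against a median of 944 over 16127 genes. They were 1293 bases in C5ar1 and 2685 in C3ar1. TGTA was found in 6 of the 8, while it was found in 83.4% of all 3'UTRs. C1qa and Cfb had none, C1qb, C1qc, C3 and Cfp had 1 each, C5ar1 had 5 and C3ar1 had 17. Within the last 100 bases of the transcript, where a site lies close to the annotated end, TGTA was present in C1qb, C3 and Cfp, against 52.5% of all genes. The TGTA nearest to the end of each of the 6 transcripts is shown in capitals, in the sense of the RNA, because it is the motif that the deleted protein recognizes.
C1qb: cagaccagagcccTGTAgatgttacagaac
C1qc: gatccatcggcccTGTAtctcctcagagtt
C3: ctctaataaagcttcagtTGTAtttcaccc
Cfp: ctttctaagattcTGTAatgacgaaggggg
C3ar1: aggctacaactgtTGTAtgaacaattatgt
C5ar1: tggctagaaaataTGTAcagatcaacacca
These motifs start 48, 126, 12, 63, 141 and 210 bases before the transcript end, in the order shown. In C3 the motif follows the AATAAA poly(A) signal, which is visible in the same stretch. A match to these letters is a description of the annotated sequence, and polyadenylation itself was not measured here.

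Among the C1q genes C1qb had the most coverage in each sample. At 0 h C1qb was 24936 and 20369.8 in WT and 13535 and 15759 in cKO. C1qa was 5647 and 4415 in WT and 3055 and 3208 in cKO. C1qc was 8202 and 7066 in WT and 3876 and 4215 in cKO. For each of the 3 chains, both cKO samples lay below both WT samples, as 20.9% of all genes tested at this time also did. Log2 fold changes of cKO against WT were -0.91 (SE 0.14) for C1qc, -0.67 (SE 0.17) for C1qa and -0.63 (SE 0.18) for C1qb. The adjusted p from limma was 0.118, 0.192 and 0.206 in that order. All 3 were called lower, and the median gene was 0.10 higher. C1qc kept its call when any of the 4 libraries was left out. C1qa and C1qb lost theirs without the first WT library, at -0.50 and -0.48, and without either cKO library, at -0.71 to -0.64 and -0.74 to -0.52. Of the 8 macrophage markers 6 also had a lower mean in cKO at 0 h, 4 of them without overlap of the samples (Csf1r, Adgre1, Itgam and Fcgr1). Csf1r, the receptor for the growth factor M-CSF, was 38697 to 44260 in WT against 26255 to 30290.2 in cKO. Adgre1, which encodes the macrophage surface protein F4/80, was 20130.3 and 24458 in WT against 13820.2 and 14295 in cKO at 0 h, whereas Cd68, a lysosomal macrophage marker, was 45504 and 42908 in WT and 69414 and 73398 in cKO. The sum over the 8 markers, 120530 to 129084 in WT and 123746 to 132928 in cKO, joins markers that were lower with Cd68 and Lyz2, which were higher, and the part of these markers in the C1q values was not tested.

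At 4 h C1qb was 37561 and 34594 in WT and 25350.1 and 23678 in cKO, with a log2 fold change of -0.56 (SE 0.11, adjusted p = 0.0849 from limma). The groups did not overlap, and the change lay just inside the 1.5-fold limit, which it passed without the second WT library (-0.62). C1qc was 10391 and 10565 in WT and 8555 and 7831 in cKO (log2 fold change -0.36, SE 0.11). C1qa was 7732 and 6790.2 in WT and 6751 and 6040.3 in cKO (log2 fold change -0.18, SE 0.14). None of the chains was called on the deposited scale by limma, and each had its cKO samples below its WT samples, as 14.9% of all genes did. Of the 8 macrophage markers 5 had a lower mean in cKO at 4 h, Adgre1 (12400 to 13300 in WT against 8983 to 9642 in cKO) and Fcgr1 without overlap. Cd68, Lyz2 and Mertk were higher without overlap, as 51.1% of all genes were. The part of these markers in the C1q values was not tested. At this time the median gene was 0.31 higher in cKO, so that other scalings place the chains lower. With the samples scaled to equal total coverage the log2 fold changes were -0.77 for C1qb, -0.57 for C1qc and -0.39 for C1qa, and C1qb was called lower, as were 6.79% of all genes. With each sample centered on its median log2 value they were -0.89, -0.69 and -0.52, and C1qb and C1qc were called lower, as were 9.90% of all genes.

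The C1q genes had more coverage after stimulation in either genotype. In WT C1qb rose (log2 fold change of 4 h against 0 h 0.68, SE 0.15, adjusted p = 0.0101 from limma). C1qa and C1qc changed by 0.54 (SE 0.16, adjusted p = 0.0293) and 0.46 (SE 0.12, adjusted p = 0.0184), under the 1.5-fold limit, which C1qa passed without the first WT library at 0 h (0.71) or the second at 4 h (0.63) and with equal totals (0.59). In cKO all 3 chains rose, C1qa by 1.03 (SE 0.16), C1qc by 1.02 (SE 0.12) and C1qb by 0.75 (SE 0.15) on the log2 scale. The median gene fell by 1.24 in WT and by 1.03 in cKO, and relative to it the chains stood higher by 1.70 to 2.06. The rise of C1qb was no longer called under quantile normalization, at 0.27 in WT and 0.34 in cKO, where C1qa and C1qc in WT also shrank, to 0.23 and 0.19. In WT the call of C1qb was also lost without the second WT library at 0 h (0.53). From 0 h to 4 h the genotype effect changed by 0.49 (SE 0.23, adjusted p = 0.288) for C1qa, 0.56 (SE 0.17, adjusted p = 0.151) for C1qc and 0.07 (SE 0.21, adjusted p = 0.885) for C1qb, so a change of the effect was not called for any chain. The order of the groups was WT at 4 h, cKO at 4 h, WT at 0 h and cKO at 0 h for each chain, and for C1qb and C1qc the samples of cKO at 4 h and WT at 0 h overlapped.

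The proportions of the chains were compared within each sample. The ratio of C1qb to C1qa coverage was 4.51 ± 0.14 (SD, n = 2 samples) in WT and 4.67 ± 0.34 (SD, n = 2) in cKO at 0 h, and 4.98 ± 0.17 (SD, n = 2) in WT and 3.84 ± 0.12 (SD, n = 2) in cKO at 4 h. The ratio in cKO at 4 h was below that of every other sample. The ratio of C1qc to C1qa was 1.53 ± 0.10 (SD, n = 2) in WT and 1.29 ± 0.03 (SD, n = 2) in cKO at 0 h, and 1.45 ± 0.15 (SD, n = 2) and 1.28 ± 0.02 (SD, n = 2) at 4 h. Each cKO sample was thus below each WT sample in this ratio. These ratios are descriptions without a test.

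In the promoters given by RefSeq (GRCm38.p6, 250 bases before to 50 bases after the start), which held 6 of the 8 genes and lacked C1qa and Cfb, C1qc carried the PU.1 motif GAGGAAGT on the strand opposite to the gene, at position -195 from the RefSeq start. GENCODE places the start of C1qc 151 bases further upstream, and from there the motif is at -44. PU.1 is a transcription factor of macrophages and of other blood cells, and the motif, searched on both strands, was found in 3.2% of 32851 promoters. The stretch at chr4:136893091-136893120 is shown on the strand of the gene, with the motif, here as its reverse complement, in capitals.
C1qc promoter: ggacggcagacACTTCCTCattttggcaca

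C3 was 733 and 1052 in WT against 662 and 906 in cKO at 0 h. The groups overlapped, and C3 had a log2 fold change of -0.18 (SE 0.29, adjusted p = 0.745 from limma, 95% interval -1.10 to 0.74). Without the second WT library or the first cKO library its sign turned, to 0.08 and 0.04. At 4 h C3 was 6863 and 5779 in WT and 16009.6 and 17178 in cKO. Both cKO samples were above both WT samples, as 51.1% of all genes were, with a log2 fold change of 1.40 (SE 0.14, adjusted p = 0.0518 from limma). C3 was called higher under every scaling tried, at 1.19 with equal totals, 1.16 after quantile normalization and 1.06 after median-centering (12.9%, 10.2% and 10.4% of all genes were called higher), and without any of the 4 libraries (1.27 to 1.52).

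Stimulation raised C3 by 7.17-fold in WT (log2 fold change 2.84, SE 0.25) and by 21.4-fold in cKO (4.42, SE 0.25), with the adjusted p from limma at 0.000332 and 0.00011. The genotype effect at 4 h minus that at 0 h, which equals the stimulation effect in cKO minus that in WT, was 1.58 for C3 (SE 0.35). Its adjusted p of 0.0861 missed 0.05, with a range of 0.022 to 0.236 over 17 alternatives. The promoter of C3 held the C/EBP motif TTGCNNAA, bound by a family of factors active in the acute phase response, at position -45 from the start and on the strand of the gene. This motif was found on either strand in 10.8% of all promoters. The stretch at chr17:57228163-57228192 is shown on the strand of the gene, with the motif in capitals.
C3 promoter: aggaaactatgTTGCGAAAttttgggcagt
The interferon motifs GAS (TTCNNNGAA) and ISRE core (GAAA, any 2 bases, GAAA) and the NF-kB motif (GGGA, any base, TTTCC), present on either strand in 8.3%, 3.44% and 0.411% of all promoters, had no match in the 6 promoters at hand.

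Cfb was the least abundant of the 8 genes at 0 h and, in both genotypes, the most induced. At 0 h it was 44.7 and 46.3 in WT and 15.7 and 10.5 in cKO. Both cKO samples were lower, as 20.9% of all genes were. The fall was 3.54-fold (log2 fold change -1.82, SE 0.25, adjusted p = 0.11 from limma), and the call held without any library (-2.11 to -1.53) and under each scaling (-1.94 to -1.91). At 4 h it was 7791 and 6479 in WT and 17091 and 17769 in cKO. Here both cKO samples were higher, as 51.1% of all genes were, by 2.45-fold (log2 fold change 1.29, SE 0.15, adjusted p = 0.0545 from limma). Under the other scalings the log2 fold change at 4 h was 0.96 to 1.08, and it was called in each.

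The rise of Cfb from 0 h to 4 h was 156-fold in WT (log2 fold change 7.28, SE 0.22) and 1352-fold in cKO (10.40, SE 0.22). The effect of genotype differed between the times by 3.12 on the log2 scale (SE 0.31, adjusted p = 0.0159 from limma), and Cfb was the member with an adjusted p under 0.05 in this comparison, against 3.05% of the 16284 genes tested. The difference was 2.85 to 3.03 under the other scalings, with adjusted p-values of 0.0426, 0.0291 and 0.0216. It lost its call with the replicate number as a block (adjusted p = 0.138), and without either WT library at 0 h or either cKO library at 4 h, at 3.09 to 3.14 with adjusted p-values of 0.0541 to 0.0701. The ratio of C3 to Cfb changed with stimulation. C3 had 19.6 ± 4.45 times (SD, n = 2) the coverage of Cfb in WT and 64.5 ± 31.4 times (SD, n = 2) in cKO at 0 h, and 0.886 ± 0.00792 (SD, n = 2) and 0.952 ± 0.0212 (SD, n = 2) at 4 h. In the stimulated samples the pair was therefore present at nearly equal coverage in either genotype.

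**Figure D2:**
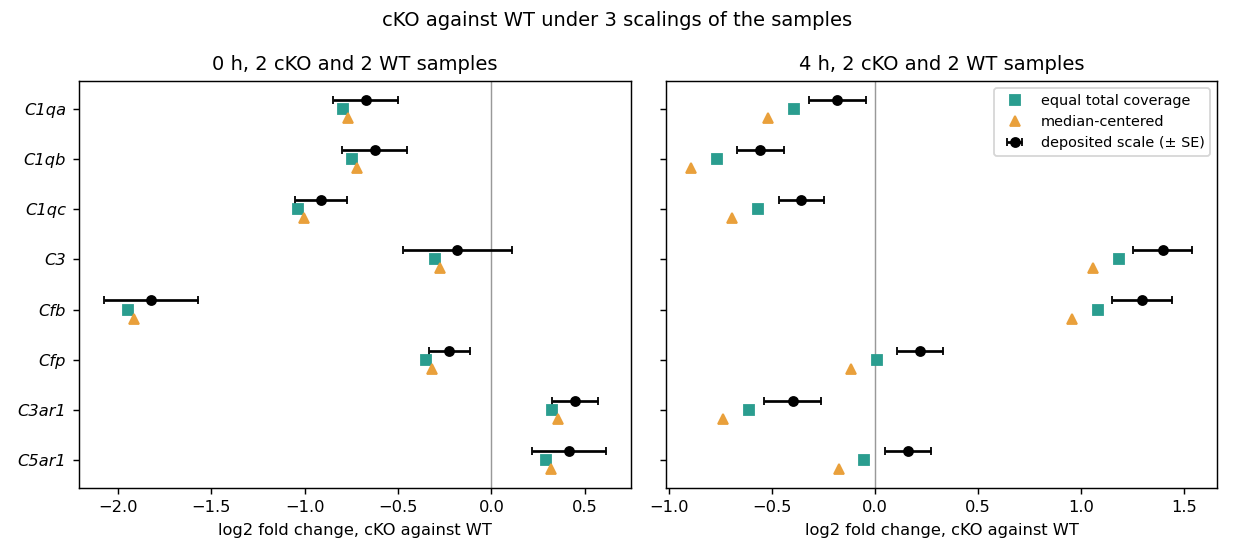
Log2 fold change of cKO against WT for the 8 genes at 0 h (left) and 4 h (right), on the deposited scale (black circles, bars ± SE from limma), with equal total coverage (green squares) and median-centered (orange triangles). Cfb lies at -1.82 at 0 h and 1.29 at 4 h, C3 at 1.40 at 4 h, and the other scalings lie to the left at 4 h, where Cfp and C5ar1 sit on either side of 0.

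Cfp, whose product properdin stabilizes the C3 convertase that factor B forms, went the other way on stimulation. It was 8762 and 8970.1 in WT against 7273 and 7907 in cKO at 0 h (log2 fold change -0.23, SE 0.11, adjusted p = 0.353 from limma, 95% interval -0.57 to 0.12). It was 3486 and 3842 in WT against 4309 and 4221 in cKO at 4 h (log2 fold change 0.22, SE 0.11, adjusted p = 0.274 from limma, 95% interval -0.13 to 0.57). The samples of the genotypes did not overlap at either time. The cKO samples were the lower at 0 h, as 20.9% of all genes were, and the higher at 4 h, as 51.1% were. Neither difference was called, and the sign at 4 h turned to -0.12 after median-centering and -0.01 after quantile normalization. Stimulation lowered Cfp by 1.28 in WT (log2 scale, SE 0.10) and by 0.83 in cKO (SE 0.10) on the deposited scale, where it was called in both genotypes. The median gene fell by a similar amount, and after median-centering Cfp changed by 0.19 and 0.37 and was not called. Its difference between the times was 0.45 (SE 0.14, adjusted p = 0.165).

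C3ar1, the receptor of C3a, was 2534 and 2711 in WT against 3375 and 3789 in cKO at 0 h. The cKO samples were higher, with a log2 fold change of 0.45 (SE 0.12, adjusted p = 0.204 from limma) that did not reach 1.5-fold. At 4 h it was 474 and 478 in WT and 331 and 394 in cKO. Here the cKO samples were lower, as 14.9% of all genes were, at -0.40 (SE 0.14, adjusted p = 0.166 from limma). That difference was called under equal totals (-0.61), quantile normalization (-0.71, with 9.87% of all genes called lower) and median-centering (-0.73). C3ar1 fell on stimulation by 5.50-fold in WT (log2 fold change -2.46, SE 0.13) and 9.89-fold in cKO (-3.31, SE 0.13), and it was called lower under each of the 3 other scalings, in WT by 0.99 after median-centering. The genotype effect differed between the times by -0.85 (SE 0.18), with an adjusted p of 0.0827 and a range of 0.02 to 0.181 over 17 alternatives. Summed coverage of the 8 macrophage markers was also lower at 4 h, 64069.9 to 65059.8 in WT and 70588 to 75278 in cKO, and its part in these falls was not tested.

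C5ar1, the receptor of C5a, varied least. It was 613 and 667 in WT against 738 and 984 in cKO at 0 h (log2 fold change 0.41, SE 0.20, adjusted p = 0.349 from limma, 95% interval -0.21 to 1.03). It was 590.5 and 623 in WT against 651 and 705 in cKO at 4 h (log2 fold change 0.16, SE 0.11, adjusted p = 0.39 from limma, 95% interval -0.19 to 0.51). The cKO samples were above the WT samples at both times, as 51.1% of all genes were at 4 h, and neither difference was called. Without the first cKO library the difference at 0 h was called (0.62), and at 4 h its sign turned under equal totals (-0.05), quantile normalization (-0.12) and median-centering (-0.18). The summed neutrophil list, a cell type that also carries C5ar1, was 20453 to 22098 in WT and 23471 to 31050.4 in cKO at 0 h and 15793 to 19030.4 in WT and 18584 to 21475 in cKO at 4 h, with Ly6g near 0, and its part in the C5ar1 values was not tested. Stimulation changed C5ar1 by -0.08 in WT (SE 0.16, 95% interval -0.50 to 0.34) and by -0.33 in cKO (SE 0.16, 95% interval -0.75 to 0.09), while after median-centering it was called higher at 1.39 and 0.87. The ratio of C3ar1 to C5ar1 coverage went from 4.10 ± 0.05 (SD, n = 2) in WT and 4.21 ± 0.51 (SD, n = 2) in cKO at 0 h to 0.786 ± 0.0251 (SD, n = 2) and 0.534 ± 0.0356 (SD, n = 2) at 4 h.

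In the comparison of 4 h with 0 h on the deposited scale, 3 of the 8 genes rose and 2 fell in WT, and 5 rose and 2 fell in cKO. Over all 16284 genes tested 12.0% were called higher and 56.0% lower in WT, and 13.5% higher and 51.9% lower in cKO. After median-centering 6 of the 8 were called higher and 1 lower in each genotype, against 34.7% higher and 22.2% lower of all genes in WT and 32.7% and 22.4% in cKO. On the deposited scale the median log2 fold change over the 8 genes was 0.50 in WT and 0.88 in cKO, with -1.24 and -1.03 over all genes. Both comparisons of stimulation use samples that the genotype comparisons use as well.

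**Figure D3:**
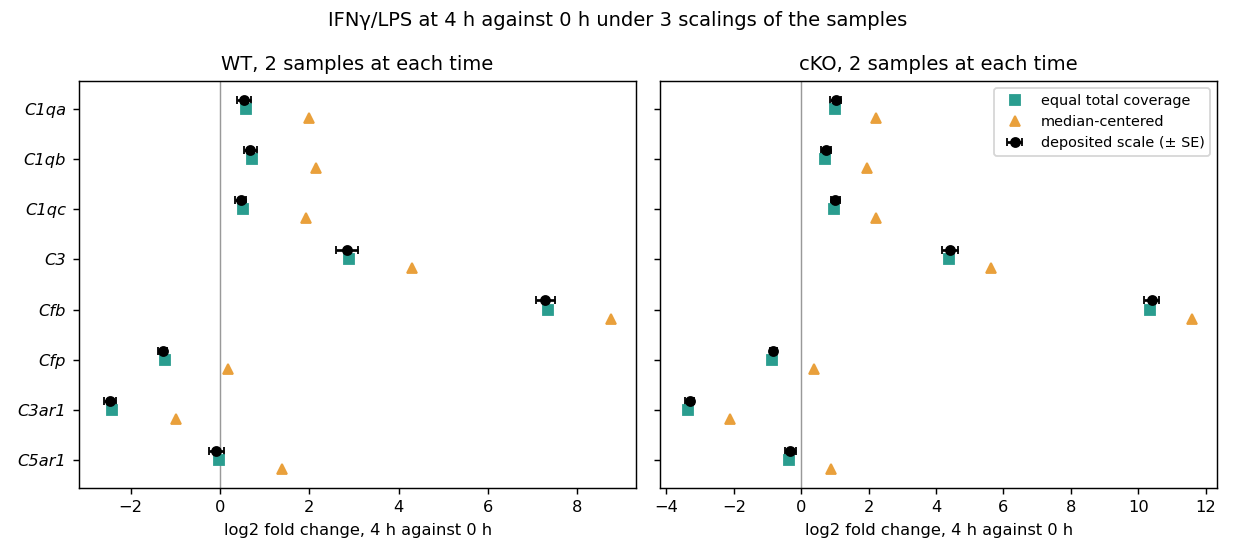
Log2 fold change of 4 h against 0 h for the 8 genes in WT (left) and cKO (right), on the deposited scale (black circles, bars ± SE from limma), with equal total coverage (green squares) and median-centered (orange triangles). Cfb and C3 lie far to the right in both genotypes (7.28 and 2.84 in WT, 10.40 and 4.42 in cKO) and C3ar1 to the left, while Cfp and C5ar1 change sides with the scaling.

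The rest of the complement system was followed through a list of 49 other genes, of which 39 were in the data. At 0 h 31 of them could be tested, and 2 were called higher and 5 lower in cKO, where 8.99% of all genes were called higher and 5.61% lower. The 5 fell to 2 without the first WT library and to 3 without either cKO library, and the 2 became 4 without the second WT library and 1 without the second cKO library. C1ra, which encodes the protease C1r that C1q activates, fell from 22.4 and 33.4 in WT to 10.9 and 10.8 in cKO (log2 fold change -1.33, SE 0.25). Cfhr2 was 1.83 and 0.547 in WT and listed at 0 in both cKO samples. Cd59a, an inhibitor of the membrane attack complex, was higher in cKO (1.07, SE 0.16), and so was Cd93, a surface receptor first described as a C1q receptor (0.74, SE 0.13). The median of the 31 genes was -0.12, and that of all genes was 0.10.

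At 4 h 29 of the listed genes were tested, with 5 called higher and 2 lower in cKO, beside 20.8% and 4.17% of all genes. The 5 became 3 without the second cKO library and 8 without the second WT library. C4b, which encodes C4, the substrate of the C1 proteases, was 215 and 191 in WT and 90.5 and 93.9 in cKO (log2 fold change -1.13, SE 0.12, adjusted p = 0.0529 from limma). C1s1, which encodes the protease C1s, was 29.1 and 36.2 in WT and 115 and 124 in cKO (1.88, SE 0.17, adjusted p = 0.0475). Clu, which encodes the fluid-phase regulator clusterin, and C1rb were also called higher, at 0.90 and 0.87, but not after median-centering. C4b and C1s1 kept their calls under each of the 3 other scalings. C4a and C4b, C1ra and C1rb, and C1s1 and C1s2 are near-identical copies, so the reads of each pair may have been split between its members. The median of the 29 genes was 0.27, and that of all genes was 0.31.

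**Figure D4:**
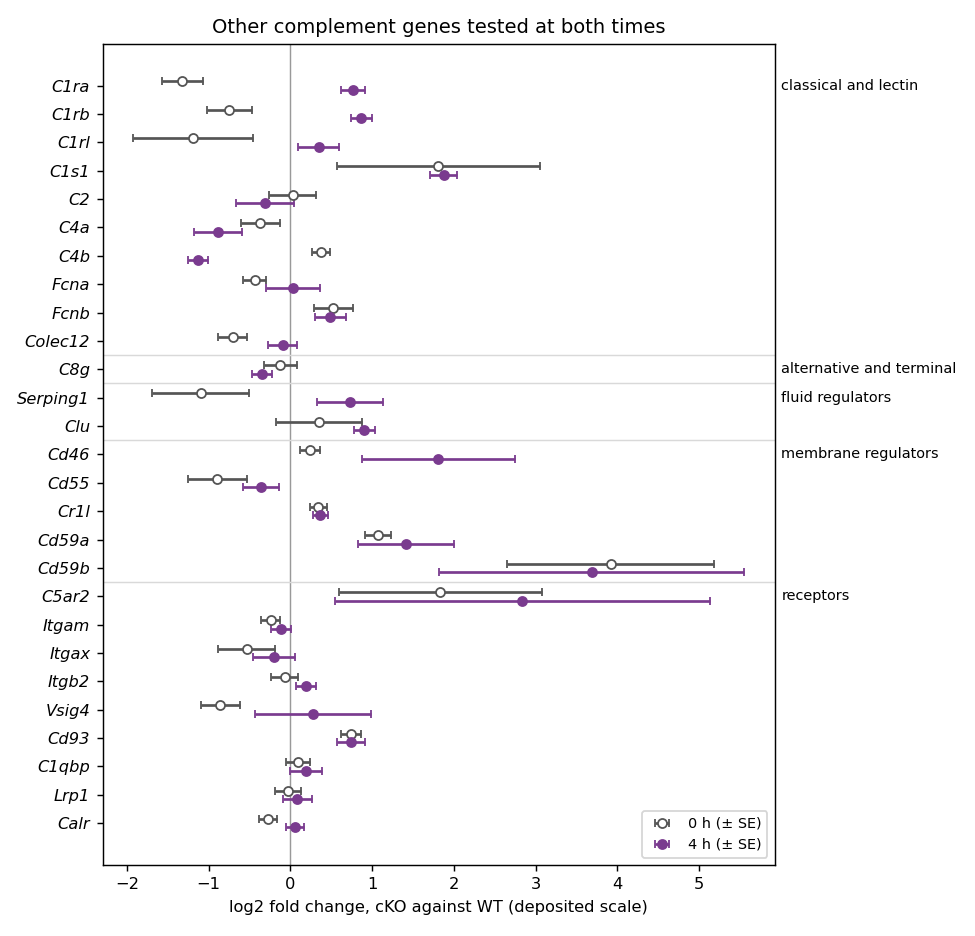
Log2 fold change of cKO against WT (deposited scale, bars ± SE from limma) at 0 h (open circles) and 4 h (filled circles) for 27 other complement genes tested at both times, grouped by role. C1ra and C4b, the genes called for a difference between the times, lie on opposite sides of 0. Other genes do so too, such as C1rb (-0.75 at 0 h and 0.87 at 4 h) and Serping1 (-1.10 and 0.73).

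Stimulation called 7 of 31 other complement genes higher and 16 lower in WT, and 9 higher and 15 lower in cKO. Of all genes 12.0% were called higher and 56.0% lower in WT, and 13.5% and 51.9% in cKO. After median-centering 12 of the listed genes were called higher and 7 lower in WT (34.7% and 22.2% of all genes), and 12 higher and 6 lower in cKO (32.7% and 22.4%). Without the second cKO library at 0 h, 9 were called lower in cKO on the deposited scale. In WT the largest rises were those of C4b (0.474 and 0.524 at 0 h, log2 fold change 8.40), C1s1 (0 and 0.483 at 0 h, 7.07) and C1rb (2.86). In cKO they were those of C1s1 (1.45 and 0.363 at 0 h, 7.14), C4b (0.653 and 0.702 at 0 h, 6.89) and C1s2, which was listed at 0 at 0 h and was 3.02 and 6.77 at 4 h. Rises from values this low depend on the pseudocount. C1ra, C1rb, C1s1, C2, C4a and C4b of the classical pathway were called higher in both genotypes, whereas the protease genes C1s2 and C1rl were called in cKO and not in WT (1.67 and 1.11 there). The stimulation effect in cKO minus that in WT was 3.87 for C1s2 (SE 1.96, adjusted p = 0.327 from limma) and 1.54 for C1rl (SE 0.85, adjusted p = 0.367), and neither was called. The largest falls in WT were those of C5ar2, the second C5a receptor, which was 2.11 and 18.4 at 0 h and 9.2e-05 and 0.000244 at 4 h, of Vsig4, a receptor for C3 fragments on resident macrophages (-4.77), and of the scavenger receptor Colec12 (-4.22). In cKO they were those of Cr2 (listed at 0 at 4 h), Cd93 (-3.67) and Vsig4 (-3.64). Among the receptors on the list 8 of 10 fell in WT and 6 of 10 in cKO, and none of the 10 was called higher on the deposited scale, where more than 50% of all genes fell. After median-centering 4 of the 10 remained lower in both genotypes (Cr2, Vsig4, Cd93 and Lrp1), and Itgb2 and Calr were called higher in both.

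Of the genes outside the complement lists, those with the most similar profile were found by the root mean square difference of log2 coverage over the 8 samples, each profile centered on its mean, among 16245 genes. For C1qa they were Zfp945 (0.133) and Mitf (0.16), for C1qb Ttc9c (0.125) and Acvr1 (0.135), and for C1qc Kcnn4 (0.157) and Tmtc4 (0.169). C1qa and C1qc were closer to each other (0.125) than to any of these. For C3 they were Gm33195 (0.277) and AW011738 (0.278), and for Cfb Socs1 (0.392), an inhibitor of interferon signaling, and Ifi206 (0.519), an interferon-inducible gene. For Cfp they were Hps1 (0.0552) and Spsb3 (0.0615), for C3ar1 the LPS receptor gene Tlr4 (0.0859) and Mdm1 (0.126), and for C5ar1 Cwc25 (0.0723) and S100a9 (0.0735), a gene of neutrophils and monocytes. These are the lowest of many differences over 8 samples that share their libraries, and they were not tested.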

How the data were processed

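The authors aligned paired-end reads to mm10/GRCm38 with HISAT2 2.2.1, quantified genes with StringTie 2.1.7 and deposited 1 value per gene and sample, in a table for each time. The deposited values are a coverage signal (mean read coverage per base); the tables do not name the unit, which was read from the values, and no scaling between samples was found. Further columns hold the authors' own comparison (log2 fold change, p-value, adjusted p-value and class) and were not used. All 8 columns of per-sample values were used (0 left out). Samples were grouped by their titles. The design foresaw count tests for counts, and none was run on coverage.

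Genotypes were compared within each time (4 samples), and stimulation, as well as the change of the genotype effect between times, over all 8 samples. The tool was limma 3.58.1 (R 4.3.3), applied to unscaled log2(coverage + 0.1) where the mean coverage reached 0.5. The pseudocount of 0.1 understates changes of low genes. P-values were adjusted over all genes tested. A difference between times was called at an adjusted p under 0.05, and the other comparisons by the rule given in the report, which follows the study's methods. The procedure was tested on simulated coverage with large changes and no shift between samples. That test does not cover small changes, low genes or shifted samples. The 8 genes and all lists were chosen with earlier results of these data known. Other complement genes were named where they had the 3 largest rises or falls among those called, and similar genes were the 2 nearest per gene. Some listed genes that this rule covers are not reported here, though the counts include them. Alternatives covered pseudocount, filter, scaling, variance model, samples in the fit, replicate block and each library left out. The labels reuse the replicate numbers (WT 1 and 2, cKO 3 and 4) at 0 h and 4 h. Sequences were read from GENCODE M21 (20726 of 21080 symbols matched; 1 transcript per gene) and RefSeq.

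Read numbers are not given with the values, so no counting error could be computed, and 2 pooled samples per group leave the spread poorly known. The p-values measure the spread between these pools.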

Additional observations from a re-analysis of the deposited data

Results flagged for a closer look

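The genotype effect differed between the times by the test for Cfb, C1ra and C4b. For Cfb the difference between 4 h and 0 h was 3.12 on the log2 scale (SE 0.31, adjusted p = 0.0159 from limma), with both cKO samples below WT at 0 h and above WT at 4 h. For C1ra it was 2.09 (SE 0.31, adjusted p = 0.0427 from limma), and it was not called with equal totals, after quantile normalization or after median-centering. For C4b it was -1.51 (SE 0.16, adjusted p = 0.0184 from limma), from a coverage under 1 in all samples at 0 h, and it was called under each of these scalings. With the replicate number as a block 0 other complement genes were called higher and 0 lower, and an intensity trend gave 0 lower. With 1 library left out, 0 other complement genes were called higher for 6 of the 8 libraries and 0 lower for 5 of the 8. Cfp (0.45, adjusted p = 0.165) and C3ar1 (-0.85, adjusted p = 0.0827) are given because, on the deposited scale, their cKO samples lay on opposite sides of the WT samples at the 2 times. How many of all genes did so was not computed. By limma neither difference passed an adjusted p of 0.05. The sign of Cfp at 4 h turned after median-centering and quantile normalization. No cause of these differences was tested.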

How the results depend on the processing

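Over the 8 genes, 346 results under alternatives other than leaving out a library or calling by adjusted p kept direction and call, 5 lost the call, 12 gained it and 13 turned their sign. Median-centering gave 3 of the 8 genes lower at 4 h, quantile normalization 2 and equal totals 2, against 0 on the deposited scale. At 4 h the log2 fold change turned to -0.12 and -0.011 for Cfp (median-centering, quantile normalization) and to -0.18, -0.12 and -0.051 for C5ar1 (with equal totals last). After median-centering stimulation gave 6 genes higher and 1 lower in WT and 1 lower in cKO, with Cfp at 0.19 and 0.37 and C5ar1 at 1.39 and 0.87, and quantile normalization placed C5ar1 at 0.59 and 0.13. The difference between times of C1qb turned to -0.20 (median-centering) and -0.020 (equal totals), and the median gene at 0 h to -0.022 (equal totals). Over all genes, median-centering gave 1552 higher and 1480 lower at 4 h (3112 and 624 on the deposited scale), and 5653 and 3621 (WT) and 5322 and 3650 (cKO) on stimulation (1956 and 9121, 2196 and 8458), and quantile normalization 1530 and 1476 at 4 h, on stimulation 3650 and 4922 (WT) and 3548 and 4984 (cKO). Equal totals gave 1929 and 1015 at 4 h. Among other complement genes at 4 h, median-centering and quantile normalization each gave 1 higher and 4 lower, and on stimulation quantile normalization gave 9 lower in WT and 8 in cKO.

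Calling by adjusted p gave 0 genes lower at 0 h, 0 higher at 4 h and 5 higher on stimulation in WT, and over all genes 114 higher and 53 lower at 0 h and 498 and 79 at 4 h. Unmoderated variances gave 2 genes lower at 0 h and 386 of all genes lower at 4 h. For the difference between times, an intensity trend gave 2 genes higher and 1 lower (1035 and 247 of all genes, against 372 and 124), and median-centering and quantile normalization gave 174 and 210 of all genes higher.

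Samples of the same replicate number at the 2 times did not deviate together over all genes (correlation of deviations 0.0204 in WT and 0.0237 in cKO). This cannot decide whether samples of the same number came from the same pools, since noise in single libraries also lowers such a correlation. With the replicate number as a block, 0 of the 8 genes differed between times (15 and 16 of all genes), and stimulation kept 3 higher and 2 lower in WT and 5 and 2 in cKO.

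Without a single library the 8 genes gave 2 to 4 lower and 0 to 1 higher at 0 h, 0 to 1 lower at 4 h and 0 to 1 with a difference between times. Of all genes, 3112 higher at 4 h became 1996 without the first cKO library and 1765 without the second, and a difference between times was called for 117 to 546 higher and 67 to 146 lower. C3 at 0 h ranged from -0.44 to 0.079 and the difference between times of C1qb from -0.077 to 0.21. Count tests by edgeR or DESeq2 were not run, since the values are coverage. The causes of these shifts were not tested. What depth limits could not be computed, since the reads behind each value are not given with it.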
